A study of Mus musculus with 4 samples.

Results

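Antioxidant genes of the glutathione, peroxiredoxin and thioredoxin systems and of the NRF2 response were read from bulk RNA-seq of mouse bone marrow mesenchymal stem cells (BMSCs), stromal cells that can give rise to bone, fat and cartilage. Members were genes whose symbols begin with the names of the glutathione S-transferase, glutathione peroxidase, peroxiredoxin or thioredoxin families, and 17 genes listed by name. Txn1 was in both sets. The rule matched 62 of 54532 rows of the deposited table, and 57 genes remained after 5 pseudogenes were left out. RNA came from 2 mice labelled as Ucp1-Cre with Rheb flanked by loxP sites on both alleles (rhebCKO) and from 2 littermates with the same floxed alleles as controls. All were C57BL/6J, 1 month old and labelled male. Ucp1-Cre acts in the brown adipocyte lineage, so the deletion of Rheb, the GTPase that activates mTORC1, was aimed at cells other than those profiled. The comparison asks how marrow stromal cells differ when that lineage lacks Rheb. No label states how the cells were isolated or grown.

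Cells make hydrogen peroxide and other oxidants in respiration, in protein folding and through NADPH oxidases. Glutathione, a tripeptide, and thioredoxin, a small protein, carry the electrons with which peroxidases reduce these oxidants, and glutathione S-transferases attach glutathione to reactive compounds. NRF2 is the transcription factor that raises many of these enzymes. KEAP1 holds it in the cytoplasm and marks it for degradation until oxidants or electrophiles modify KEAP1. NRF2 binds with a small MAF protein to a DNA motif called the antioxidant response element.

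Total counts ran from 17425669 to 19001878 per library. The replicate numbers in the titles went with sex-linked RNA: counts of Xist, which is transcribed from the inactive X, were 31103 and 2 in rhebCKO replicates 1 and 2, against 19502 and 8 in control replicates 1 and 2, so both replicates 1 went against their male label. The main results are therefore also given within replicate 1 and within replicate 2. Rheb was at 129 and 121 CPM (counts scaled by library size and TMM factor to a common total) in the libraries labelled rhebCKO, against 89.7 and 81.5 CPM in controls, and does not check a deletion made in another lineage. Stromal RNA was abundant, with 11003 to 16326 CPM of Col1a1. Levels of other stromal markers ranged widely. Pdgfrb was at 428 to 764 CPM, Cxcl12 at 359 to 892 CPM and Pdgfra at 33.0 to 102 CPM. Lepr, Dcn and Lum stood between 1.09 and 12.7 CPM. Macrophage RNA was present in all 4 libraries, with 5162 to 7768 CPM of Lyz2. Erythroid markers were near 0, at a summed 2.46 and 4.26 CPM in the rhebCKO libraries and 2.99 and 5.58 CPM in controls, and Hba-a2 and Slc4a1 had no counts.

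Promoter windows of 300 bases from RefSeq (GRCm38.p6, 250 bases before and 50 after each annotated start) were found for 49 of the 57 members. Those without one were Gsr, Hmox1, Gclc, Sod3, Prdx6, Prdx6b, Gsta4 and Gstt2. The core of the antioxidant response element, TGACNNNGC on either strand, stood in a window of 10 of the 49 genes (20.4%), against 3781 of all 27025 genes (14.0%). With an A after it, it stood in 2 of 49 (Txnrd1 and Gsta3; 4.08%), against 932 of 27025 genes (3.45%). The AP-1 letters TGANTCA stood in 6 of 49 (12.2%), against 2425 of 27025 genes (8.97%). The 10 genes with the core were Prdx1, Nfe2l2, Txnrd1, Srxn1, Mgst1, Gclm, Sod1, Gstm5, Gsta3 and Gstm7. Stretches around the core are shown for 5 of these genes whose levels are described further on, each in the direction of its gene with the core letters in capitals. A core on the opposite strand reads as its reverse complement. The Prdx1 match also holds the AP-1 letters, overlapping the core. These are matches of letters, not measured sites.
Prdx1, chr4:116685436-116685504, plus strand: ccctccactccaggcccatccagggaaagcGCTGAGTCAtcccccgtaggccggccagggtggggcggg
Txnrd1, chr10:82859084-82859152, plus strand: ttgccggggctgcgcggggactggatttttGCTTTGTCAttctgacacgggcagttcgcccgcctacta
Gclm, chr3:122245393-122245461, plus strand: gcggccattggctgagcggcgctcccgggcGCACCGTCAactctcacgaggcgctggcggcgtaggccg
Mgst1, chr6:138140441-138140509, plus strand: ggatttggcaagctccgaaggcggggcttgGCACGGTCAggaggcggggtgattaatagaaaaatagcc
Gstm5, chr3:107895782-107895850, plus strand: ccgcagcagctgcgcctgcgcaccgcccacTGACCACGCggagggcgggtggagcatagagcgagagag

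Levels were compared between genes as TPM, which divides counts by the exon length in the table. By the mean over 4 libraries the highest was Prdx1, a cytosolic peroxiredoxin, at 1676 and 1627 TPM in the rhebCKO libraries and 2133 and 863 TPM in controls. Control replicate 1 was highest and control replicate 2 lowest, so the controls spanned the rhebCKO libraries. In control replicate 2 Gpx3, at 1061 TPM, stood above it. Gpx1, the cytosolic selenium-containing glutathione peroxidase, came next by the mean with 737 and 886 TPM in the rhebCKO libraries and 847 and 630 TPM in controls. Its range overlapped those of Txn1 (cytosolic thioredoxin), Hmox1 (the haem-degrading oxygenase), Cat (catalase) and Gpx3, whose means over 4 libraries were 666, 609, 568 and 558 TPM, so the order among these 5 genes did not exceed the spread between libraries. In all, 6 members averaged over 500 TPM, 16 were between 100 and 500, 15 between 10 and 100, and 20 were at or under 10 TPM.

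**Figure D1:**
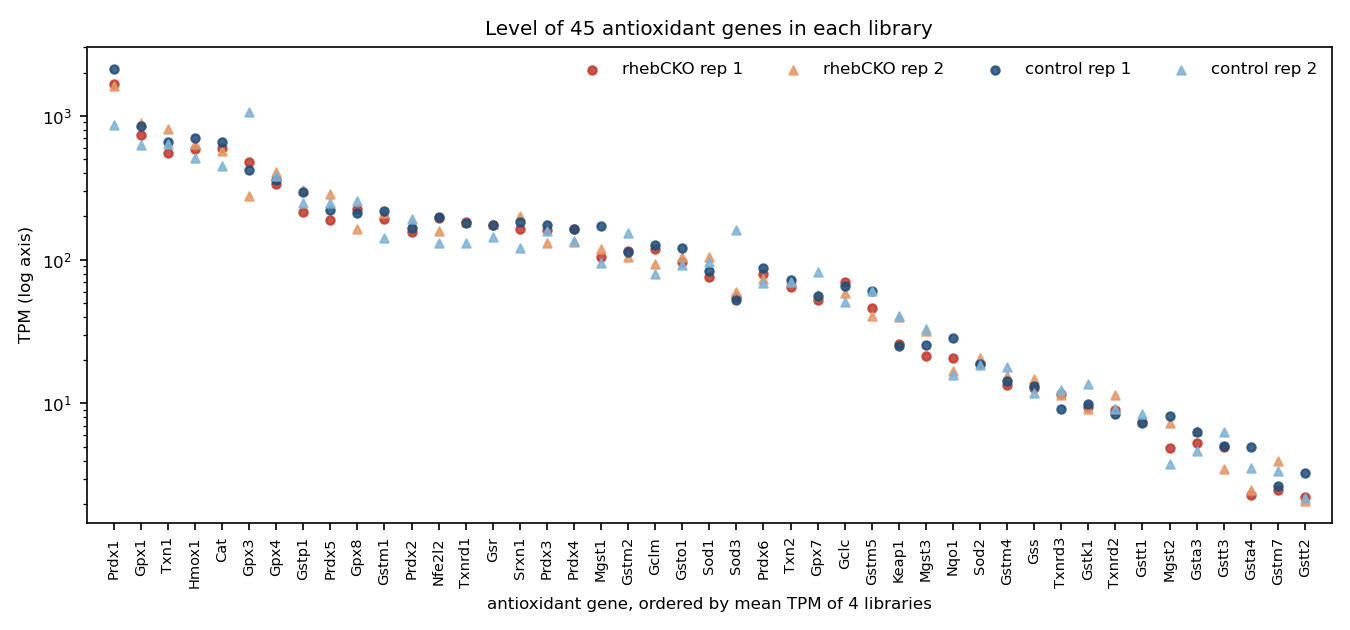
TPM (vertical, log axis) of the 45 tested antioxidant genes in each library, ordered by their mean over the 4 libraries. Circles are replicates 1 and triangles replicates 2, with rhebCKO in red and orange and control in dark and light blue; control replicate 2 lies below the other libraries for Prdx1 (863 TPM) and above them for Gpx3 (1061 TPM) and Sod3 (161 TPM).

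Of the 57 members, 45 had enough counts to be tested. Among the other 12, Gpx2, Gpx5, Gpx6, Prdx6b, Gsta1 and Gstm3 had no counts in any library, which allows up to 0.158 to 0.172 CPM, and Gsta2, Gstm6, Gsto2, Gstp2, Gstp3 and Gstt4 had at most 9 counts in a library. Gpx2, Gpx5 and Gpx6 are known from gut, epididymis and olfactory tissue. This limit covers counting error only.

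No antioxidant gene passed the test between the groups. edgeR's quasi-likelihood test with Benjamini-Hochberg adjustment over 14963 genes called 0 of 45 members and 0 of all genes (0%), and every member had an adjusted p of 1 after rounding. At an unadjusted p under 0.05 it had 1 member, Gpx3, and 278 of all genes (1.86%). DESeq2 called 0 members, with 2 at an unadjusted p under 0.05, and 23 of all genes (0.154%), and limma-voom called 0 members with 0 under that level. Without control replicate 1, edgeR called 2 members, Gpx3 and Sod3, and 196 of 15691 genes (1.25%). That fit held 1 control library, so no spread between controls entered it. Over the 45 members the median log2 fold change (rhebCKO over control) was -0.04, with 16 members at higher and 29 at lower values. Over all genes tested it was -0.01, with 7304 higher and 7659 lower. The groups did not overlap for 7 members, all lower in the rhebCKO libraries (all genes: 22.0% in either direction, 11.3% lower and 10.8% higher). In bulk RNA, fewer cells of a type and less RNA per cell cannot be told apart.

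**Figure D2:**
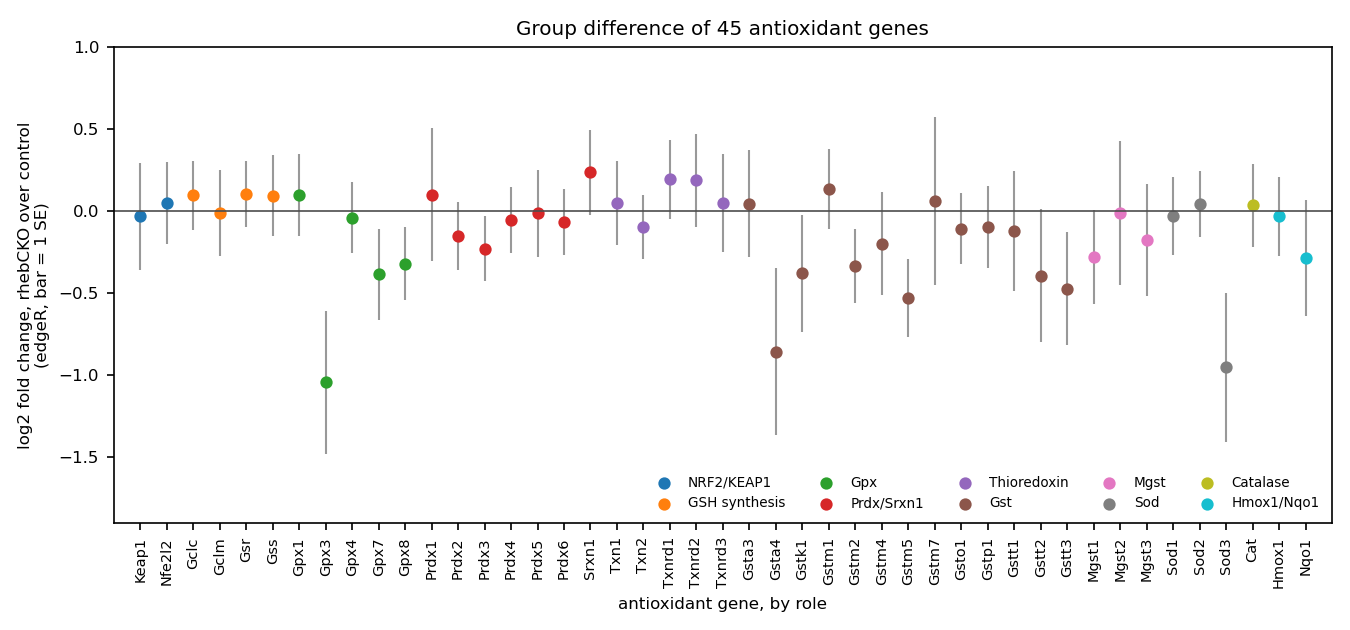
Log2 fold change of rhebCKO over control (vertical; points from edgeR over 2 libraries a group, bars 1 SE) for the 45 tested genes, coloured by role. Gpx3 (-1.05), Sod3 (-0.95) and Gsta4 (-0.86) lie lowest, the NRF2, glutathione synthesis and thioredoxin genes lie near 0, and no gene passed the adjusted threshold.

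NRF2 and its repressor had similar group means. Nfe2l2, which encodes NRF2 (chromosome 2, 75675513 to 75704641, minus strand, mm10), was at 201 and 174 CPM in the rhebCKO libraries and 217 and 145 CPM in controls. The rhebCKO values lay between the 2 controls. Its log2 fold change was 0.05 (SE 0.25), with a 95% interval from -0.53 to 0.63, so differences within that interval were not excluded. Keap1 was at 33.0 and 54.8 CPM in the rhebCKO libraries, against 34.1 and 55.6 CPM in controls. It followed the replicate number and not the group: the replicates 2 exceeded the replicates 1 by 0.72 on the log2 scale, while the group difference was -0.03 (SE 0.33, 95% interval -0.79 to 0.72).

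The 4 genes of glutathione synthesis and recycling all overlapped between groups, 3 with higher and 1 with lower values. Gclm, the modifier subunit of the rate-limiting glutamate-cysteine ligase, was at 202 and 171 CPM in the rhebCKO libraries, against 230.2 and 146 CPM in controls. Within replicate 1 its log2 ratio came to -0.19, and within replicate 2 to 0.23. The log2 fold change of the catalytic subunit gene Gclc came to 0.10 (SE 0.21), that of the glutathione synthetase gene Gss to 0.09 (SE 0.25) and that of Gsr, whose product returns oxidised glutathione to its reduced form, to 0.10 (SE 0.20). Their 95% intervals lay within -0.48 and 0.66. All 4 genes were higher within replicate 2, and all but Gclc were lower within replicate 1. Hmox1 was at 280.3 and 322 CPM in the rhebCKO libraries, against 355 and 262 CPM in controls (log2 fold change -0.03, SE 0.24), and Nqo1, a quinone reductase often read as an NRF2 target, was at 8.68 and 7.55 CPM against 12.7 and 7.11 CPM in controls (-0.29, SE 0.35). For both of these genes the 2 controls lay apart by more than the rhebCKO libraries did.

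Glutathione peroxidases held the lowest p of the whole group of genes. Gpx3, the secreted plasma-type glutathione peroxidase (chromosome 11, 54902453 to 54910377, plus strand), was at 234 and 145 CPM in the rhebCKO libraries, against 219.6 and 563 CPM in controls. Control replicate 2 alone stood high, and control replicate 1 lay between the rhebCKO libraries. The log2 fold change was -1.05 (SE 0.44, unadjusted p = 0.0443 and adjusted p = 1 by edgeR). The replicates 1 differed by a log2 ratio of 0.09 and the replicates 2 by -1.96. Leaving out control replicate 2 gave -0.20, and leaving out control replicate 1 gave -1.58, each from a fit with 1 control library. Gpx7 and Gpx8, peroxidases of the endoplasmic reticulum, had log2 fold changes of -0.39 (SE 0.28) and -0.32 (SE 0.22), and of -0.05 and -0.15 without control replicate 2. Gpx8 was at 64.3 and 49.9 CPM in the rhebCKO libraries and 63.9 and 78.9 CPM in controls, also highest in control replicate 2. Gpx4, which reduces lipid peroxides in membranes, was at 158 and 204 CPM in the rhebCKO libraries, against 179 and 194 CPM in controls (-0.04, SE 0.22), and Gpx1 had a log2 fold change of 0.10 (SE 0.25).

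Sod3, the extracellular superoxide dismutase, followed the same library. It was at 55.6 and 64.5 CPM in the rhebCKO libraries, against 56.5 and 176 CPM in controls. Control replicate 2 stood above the other 3 libraries, which lay close together. Its log2 fold change of -0.95 (SE 0.45, unadjusted p = 0.0685 by edgeR) became 0.10 without control replicate 2, and -1.56 without control replicate 1. The cytosolic Sod1 and mitochondrial Sod2 had log2 fold changes of -0.03 (SE 0.24) and 0.04 (SE 0.20). Catalase was at 425 and 433 CPM in the rhebCKO libraries and 493 and 344 CPM in controls (0.04, SE 0.25), with control replicate 2 lowest.

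For some marker sums, those of stromal, osteoblast and macrophage markers among them, control replicate 2 was also the highest or the lowest library. It was neither for the B and plasma cell, endothelial and megakaryocyte sums. The megakaryocyte sum was 148 and 200 CPM in the rhebCKO libraries and 222 and 191 CPM in controls. Summed over 9 stromal and fibroblast markers, levels were 26068 and 27462 CPM in the rhebCKO libraries and 24309 and 37905 CPM in controls, highest in control replicate 2. Summed over 6 osteoblast markers they were 87.9 and 70.6 CPM in the rhebCKO libraries and 102 and 273 CPM in controls. The sum of 7 macrophage markers, none of them at 0, was 8080 and 9944 CPM in the rhebCKO libraries, against 10467 and 7233 CPM in controls. This sum was lowest in control replicate 2, and most of it was Lyz2, at 5162 to 7768 CPM. Not every macrophage marker followed it. C1qa was at 287 and 503 CPM in the rhebCKO libraries and 340 and 471 CPM in controls. Cd14 was at 29.3 and 45.2 CPM in the rhebCKO libraries and 43.2 and 35.0 CPM in controls. The part of these cell types in the levels of Gpx3, Sod3, Gpx8 and Prdx1 was not tested. Of the 45 tested members, 16 were lowest (35.6%) and 14 highest (31.1%) in control replicate 2, beside 26.5% and 27.2% over all genes tested. Other libraries were extreme for more members. In rhebCKO replicate 1, 20 were lowest (44.4%, all genes 25.1%). In rhebCKO replicate 2, 15 were highest (33.3%, all genes 26.4%), as were 15 in control replicate 1 (33.3%, all genes 23.6%).

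**Figure D3:**
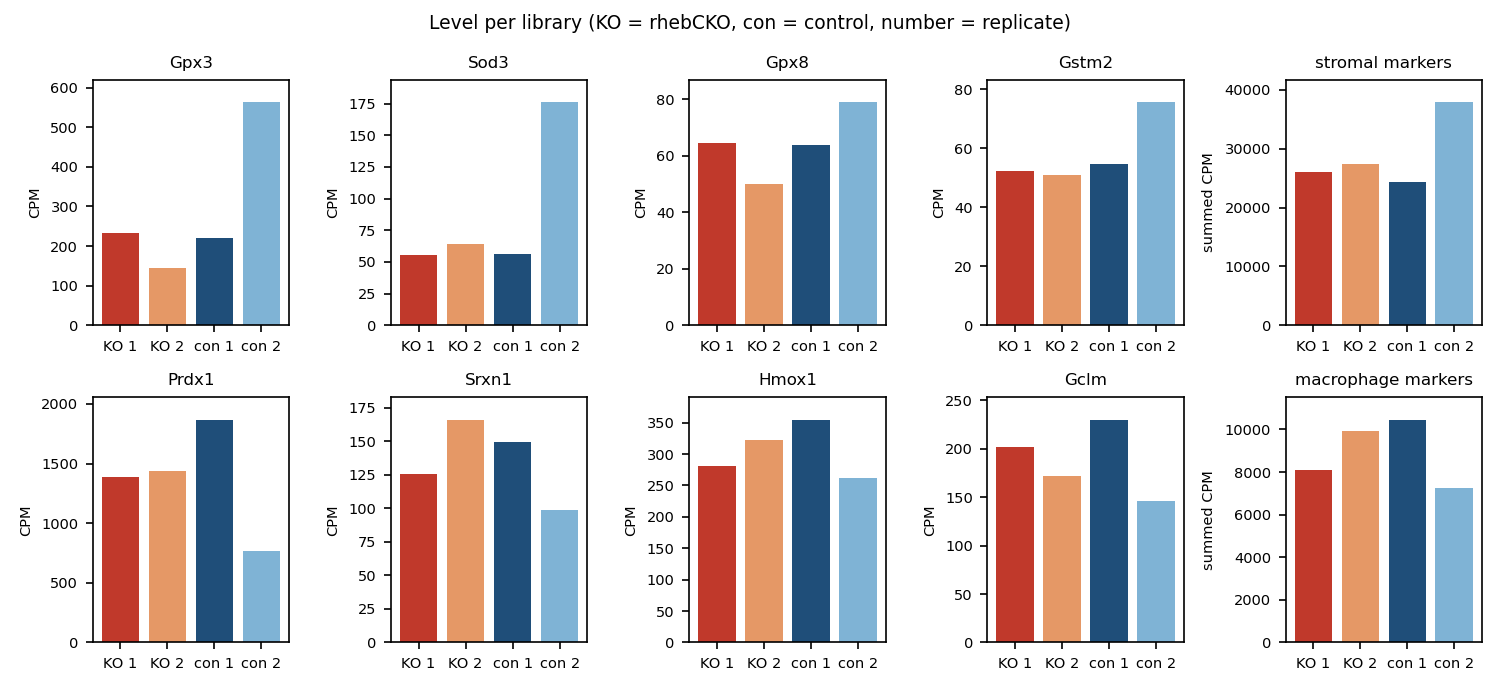
CPM per library (bars, vertical axes from 0) of 8 antioxidant genes, chosen after their values were seen, and the summed CPM of stromal and macrophage markers. In the upper row control replicate 2 is highest in every panel, stromal markers included (37905 CPM); in the lower row it is lowest in every panel, macrophage markers included (7233 CPM).

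Peroxiredoxins, which reduce peroxide with a reactive cysteine, had 2 of 7 tested genes (sulfiredoxin included) at higher and 5 at lower values, with a median of -0.06. Prdx1 was at 1387 and 1441 CPM in the rhebCKO libraries, against 1869 and 769 CPM in controls. Its log2 fold change was 0.10 (SE 0.40, 95% interval -0.84 to 1.04), with -0.43 within replicate 1 and 0.91 within replicate 2. It held 64.8% and 61.8% of the summed TPM of its class in the rhebCKO libraries, against 68.2% and 48.4% in controls. Srxn1, sulfiredoxin, which repairs over-oxidised peroxiredoxins, was at 126 and 166 CPM in the rhebCKO libraries, against 149 and 98.7 CPM in controls (0.24, SE 0.26), and was again lowest in control replicate 2. Prdx3, the mitochondrial peroxiredoxin, was the class's only gene whose groups did not overlap, at 64.7 and 56.6 CPM in the rhebCKO libraries and 74.0 and 68.1 CPM in controls (-0.23, SE 0.20). Prdx2, abundant in red cells, was at 130 and 157 CPM in the rhebCKO libraries and 146 and 173 CPM in controls (-0.15, SE 0.21), in libraries where erythroid markers were near 0. The X-linked Prdx4, of the endoplasmic reticulum, had a log2 fold change of -0.06 (SE 0.20).

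Thioredoxin genes had 4 of 5 members at higher values, with a median of 0.05. Within replicate 1, 3 of the 5 were lower, and within replicate 2, 4 were higher. Txn1 was at 159 and 249 CPM in the rhebCKO libraries and 198 and 197 CPM in controls. The 2 rhebCKO libraries lay on either side of the controls, and the log2 fold change was 0.05 (SE 0.26). Txnrd1, the cytosolic selenium-containing reductase that recharges thioredoxin, was at 349.9 and 379 CPM in the rhebCKO libraries, against 366 and 272 CPM in controls (0.19, SE 0.24). Its log2 fold change came to 0.0098 without control replicate 2 and to 0.41 without control replicate 1. Txnrd2, its mitochondrial counterpart, was at 10.8 and 14.8 CPM in the rhebCKO libraries and 10.7 and 11.7 CPM in controls (0.19, SE 0.28). It and Gclc were the 2 members with a positive log2 ratio within both replicate numbers.

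Glutathione S-transferases lay lower more often than higher, though 0 of 13 tested genes passed the adjusted threshold by edgeR, DESeq2 or limma-voom and edgeR had 0 under an unadjusted p of 0.05. Values were lower for 10 and higher for 3, with a median log2 fold change of -0.20. For 6 of the 13 the groups did not overlap, all lower in the rhebCKO libraries (all genes: 22.0% in either direction, 11.3% lower). Without control replicate 2, Gstm2, Gstk1 and Gstt3 came to -0.07, -0.10 and -0.27, while Gsta4 came to -1.06 and Gstm5 to -0.51. All 13 were lower within replicate 1, and 8 were lower within replicate 2. Summed over the 21 genes of the family, the level was 271 and 317 CPM in the rhebCKO libraries, against 337 and 305 CPM in controls, so the sums overlapped. Summed B and plasma cell markers were also lower in both rhebCKO libraries (8 markers, none at 0). They came to 347 and 292 CPM in the rhebCKO libraries and 929 and 556 CPM in controls. Of these 8, 5 were lower without overlap, while Cd79b, Ms4a1 and Sdc1 overlapped. Sdc1 was at 224 and 240 CPM in the rhebCKO libraries and 220 and 294 CPM in controls. The summed osteoblast markers given above (6 markers, none at 0) were lower as well. Among them Sp7, Alpl and Ibsp were lower without overlap, and Runx2 and Bglap overlapped. Dmp1, at 3 to 13 counts per library, was higher without overlap. Of the 9 stromal and fibroblast markers, none at 0, 3 did not overlap and were lower (Lepr, Dcn and Lum), 6 were higher within replicate 1, and the sum overlapped between the groups. The part of these cell types in the values of the transferases was not tested.

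The mu class lies in 1 cluster on chromosome 3, from Gstm5 (107895821 to 107898686) to Gstm4 (108040408 to 108044894) in mm10, and its genes did not share a direction. Gstm5 was at 15.99 and 15.2 CPM in the rhebCKO libraries, against 22.4 and 22.5 CPM in controls. Its 2 groups lay further apart than the libraries within each, with means of 15.6 ± 0.59 and 22.5 ± 0.12 CPM (SD, n = 2 each). The log2 fold change was -0.53 (SE 0.24, 95% interval -1.08 to 0.02, unadjusted p = 0.0580 and adjusted p = 1 by edgeR), with -0.48 within replicate 1 and -0.57 within replicate 2, and from -0.57 to -0.47 when each library was left out. Gstm2 was at 52.1 and 50.8 CPM in the rhebCKO libraries, against 54.5 and 75.6 CPM in controls (-0.34, SE 0.23), and its value was -0.07 without control replicate 2. Gstm1, the class member with the highest TPM, was at 76.9 and 90.6 CPM in the rhebCKO libraries, against 91.9 and 61.0 CPM in controls (0.13, SE 0.24), and was lowest in control replicate 2. Counting of reads that fit several genes was not described in the sources used here, so single values within the mu, pi and theta clusters, whose members are close copies, are uncertain.

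Other classes were mostly low. Gsta4, whose enzyme conjugates 4-hydroxynonenal, a product of lipid peroxidation, was at 0.80 and 0.922 CPM in the rhebCKO libraries, against 1.82 and 1.32 CPM in controls (-0.86, SE 0.51, from 14 to 34 counts per library). Gstt3 of the theta class was at 5.20 and 3.92 CPM in the rhebCKO libraries and 5.55 and 7.11 CPM in controls (-0.47, SE 0.34). Gstp1, of the pi class and the family's highest in TPM, was at 44.3 and 67.1 CPM in the rhebCKO libraries, against 64.2 and 54.9 CPM in controls (-0.10, SE 0.25). Gsto1 had a log2 fold change of -0.11 (SE 0.22), Gstk1 -0.38 (SE 0.36), Gstt1 -0.12 (SE 0.37) and Gsta3 0.05 (SE 0.33). The microsomal transferase gene Mgst1, in a membrane-bound family unrelated to the soluble enzymes, was at 57.4 and 69.5 CPM in the rhebCKO libraries, against 98.7 and 55.5 CPM in controls (-0.28, SE 0.29), with control replicate 1 alone high.

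**Figure D4:**
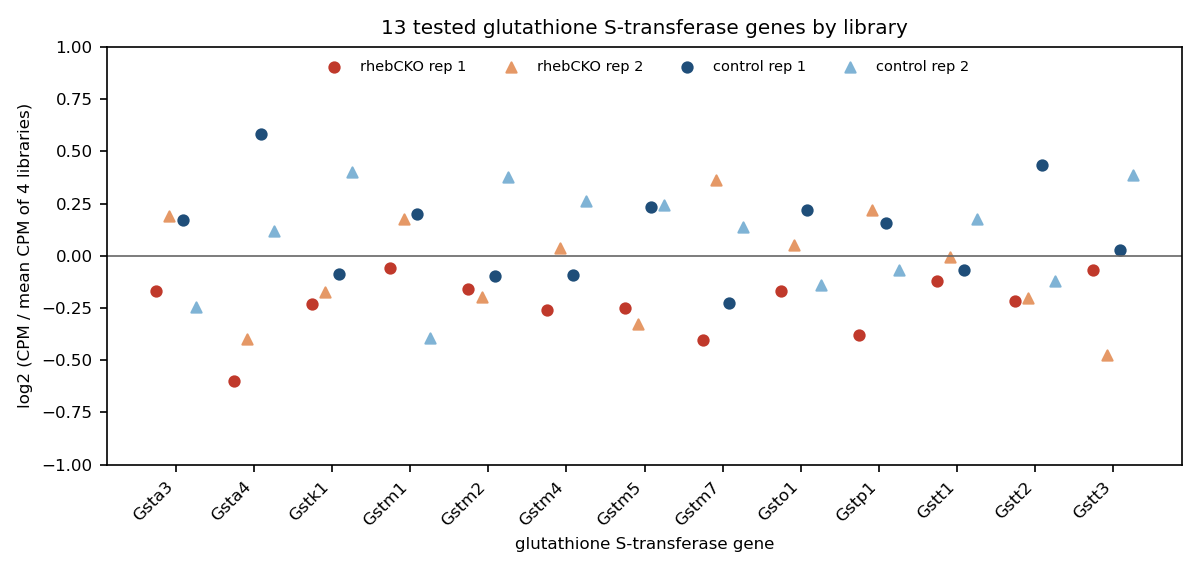
Log2 of CPM over the mean CPM of the 4 libraries (vertical) for the 13 tested glutathione S-transferase genes. Circles are replicates 1 and triangles replicates 2; for Gsta4, Gstk1, Gstm2, Gstm5, Gstt2 and Gstt3 both rhebCKO points (red, orange) lie under both control points (dark and light blue).

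Directions depended on the replicate number. Within replicate 1, 40 of the 45 members (88.9%) were lower in the rhebCKO library, beside 52.8% of all genes tested. Within replicate 2, 27 of 45 (60.0%) were higher, beside 49.4% of all genes. The sign was opposite in the 2 replicate numbers for 28 of 45 members (62.2%, all genes 52.6%), lower in both for 15 (33.3%, all genes 25.4%) and higher in both for 2 (4.44%, all genes 21.9%). Medians of these log2 ratios were -0.19 for the replicates 1 and 0.11 for the replicates 2. Replicate 1 of the rhebCKO group was the lowest library for 20 members (44.4%, all genes 25.1%). It was the highest for 1, Gclc (2.22%, all genes 22.8%). Each ratio sets 1 library against 1 other, so neither has a test.

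**Figure D5:**
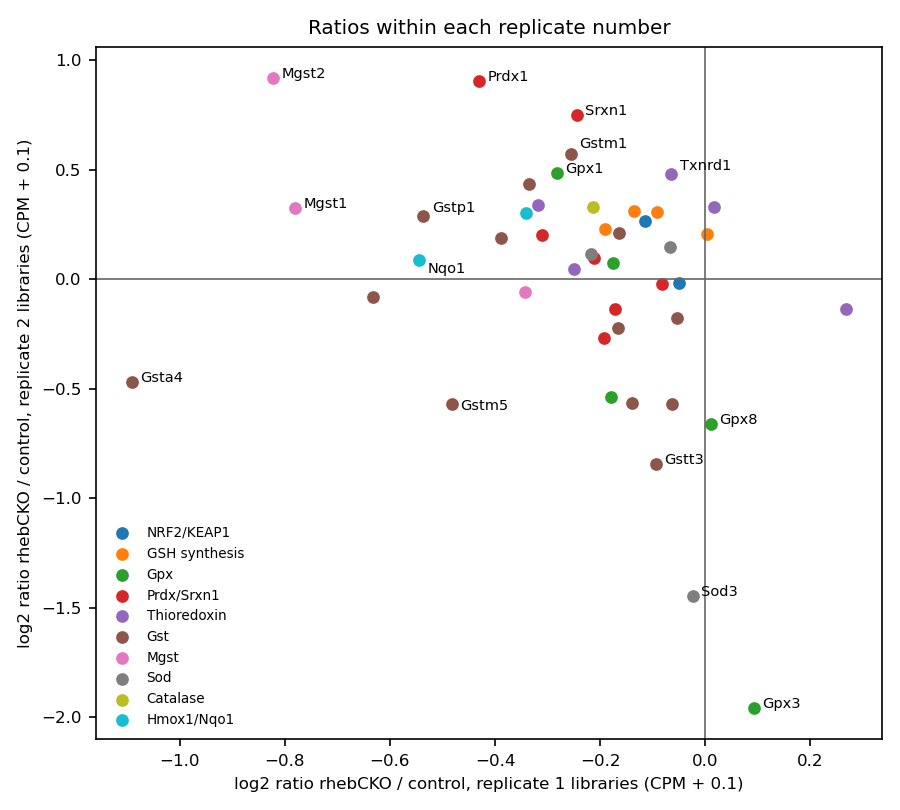
Log2 ratio of rhebCKO over control, from CPM + 0.1, within replicate 1 (horizontal) and within replicate 2 (vertical) for the 45 tested genes, coloured by role. Most points lie left of 0, with medians of -0.19 (horizontal) and 0.11 (vertical); Gpx3 and Sod3 lie far below 0 on the vertical axis only, and Prdx1 and Mgst2 are low on the horizontal and high on the vertical axis.

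Genes around the pathway were described by 8 further lists, and edgeR, like DESeq2, called 0 members of any of them. NRF2 regulators and partners had 10 of 13 tested genes at higher values (median 0.04), with Crebbp, a coactivator, at 0.28 (SE 0.21), Maff at 0.32 (SE 0.41) and Bach1, which competes with NRF2 for its motif, at 0.15 (SE 0.23). Cystine import and glutathione breakdown had 9 higher and 9 lower of 18. Slc7a11, the cystine carrier that feeds glutathione synthesis, was at 46.8 and 57.1 CPM in the rhebCKO libraries, against 42.0 and 30.3 CPM in controls. Its groups did not overlap, with a log2 fold change of 0.52 (SE 0.25, unadjusted p = 0.0665 by edgeR), 0.16 within replicate 1 and 0.91 within replicate 2. Anpep, a surface aminopeptidase, was at 83.2 and 171 CPM in the rhebCKO libraries and 88.7 and 58.0 CPM in controls, with rhebCKO replicate 2 alone high.

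NADPH supply had 14 of 19 genes at higher values (median 0.12), among them Tkt, the transketolase of the pentose phosphate pathway, at 0.23 (SE 0.24). Within replicate 1, 12 of the 19 were lower (median -0.06), and within replicate 2, 14 were higher (median 0.17). The log2 ratios of Tkt were -0.06 and 0.50 in the same order. Haem and iron handling had 7 of 11 higher (median 0.10), with 10 of 11 lower within replicate 1 and 10 of 11 higher within replicate 2. Slc40a1, the iron exporter ferroportin, was at 342 and 296 CPM in the rhebCKO libraries, against 351 and 160.3 CPM in controls, lowest in control replicate 2. NADPH oxidases and other oxidant sources had 9 of 11 higher (median 0.27), but medians of -0.29 within replicate 1 and 1.04 within replicate 2. Neutrophil markers (7, none at 0) had medians of -0.62 and 1.33 in the same order, with sums of 1906 and 2332 CPM in the rhebCKO libraries and 2747 and 945 CPM in controls, and macrophage markers had medians of -0.24 and 0.47. Mpo was in both the neutrophil list and the list of oxidant sources. The part of neutrophils and macrophages in the levels of the oxidant sources was not tested. In that list Nos2, the inducible nitric oxide synthase, was at 8.11 and 12.1 CPM in the rhebCKO libraries, against 5.98 and 5.58 CPM in controls (0.80, SE 0.32, unadjusted p = 0.0386 by edgeR). The Nos2 groups did not overlap. Marker sums higher in both rhebCKO libraries were the endothelial and the brown adipocyte ones. The endothelial sum was 834 and 959 CPM in the rhebCKO libraries and 679.9 and 769 CPM in controls (5 markers, none at 0). The brown adipocyte sum was 18.96 and 21.03 CPM in the rhebCKO libraries and 16.7 and 15.1 CPM in controls (5 markers, Cidea at 0). Almost all of the latter came from Prdm16 (12.3 to 14.2 CPM) and Dio2 (2.00 to 6.86 CPM). Ucp1 had 0 and 1 counts in the rhebCKO libraries and 0 in both controls. Ppargc1a had 1 and 0 counts in the rhebCKO libraries and 2 in each control. The part of these cell types in the higher values of Nos2 and Slc7a11 was not tested. Carbonyl and quinone reductases had 9 of 17 higher (median 0.01), with Aldh1a1, a retinaldehyde dehydrogenase, at 1.14 and 0.576 CPM in the rhebCKO libraries, against 1.495 and 1.47 CPM in controls (-0.78, SE 0.55).

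Selenoprotein synthesis and other selenoproteins had 16 of 19 genes at lower values, by small amounts (median -0.08), led by Pstk, a kinase of selenocysteine tRNA charging, at -0.44 (SE 0.30) and Selenom at -0.37 (SE 0.31). Other thioredoxin-fold genes had 13 of 17 at lower values (median -0.07). The lowest p of the 8 lists belonged to Nxn, nucleoredoxin, a thioredoxin-like regulator of Wnt signalling. Nxn was at 41.8 and 52.6 CPM in the rhebCKO libraries, against 70.6 and 92.7 CPM in controls. Its groups did not overlap, and the log2 fold change of -0.79 (SE 0.23, unadjusted p = 0.00918 and adjusted p = 1 by edgeR) was -0.75 within replicate 1 and -0.82 within replicate 2.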

How the data were processed

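The authors deposited whole-number read counts per gene for 2 rhebCKO and 2 control libraries, with exon lengths. The submitters' processing notes name Trimmomatic, HISAT2, featureCounts and the mm10 build, and give no versions. Per the labels' protocols the kit was TruSeq RNA v.2, which does not mark strand, so overlapping genes cannot be told apart. All 57 member IDs were found in GENCODE M21, 53 with the same coordinates. Groups and replicate numbers came from the titles. The design text gives 2 mice a group but not how cells of each were cultured, so p-values measure the spread between these samples, which may be partly technical. Depth was 17425669 to 19001878 counts per library.

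Counts were tested with edgeR 4.0.16 in R 4.3.3 (filterByExpr, TMM, quasi-likelihood F-test, Benjamini-Hochberg adjustment at 0.05 over 14963 genes). SE was the absolute log2 fold change over the square root of F, and 95% intervals used edgeR's degrees of freedom. TMM factors ran from 0.997 to 1.003. TPM was computed from these counts and exon lengths. Ratios within a replicate number used CPM + 0.1. With 2 against 2, an exact permutation p cannot go below 0.333. The fits were tried on simulated counts with the same spread for every gene and no difference between replicate numbers. The simulation therefore cannot show how the fits behave on these libraries. Alternatives were median-of-ratios and total-count scaling, other filters, DESeq2 1.42.0, limma-voom (limma 3.58.1), a replicate block and leaving out each library.

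Members and lists were chosen with earlier results of these data known. Genes named were, up to 8 per direction, the tested members with the smallest p, 10 core genes, the highest member of each class by TPM, and up to 3 genes per further list. Sod2, Prdx2, Prdx3, Prdx4, Gpx4 and Mgst2 were named after their values were seen. Of the further lists, Ero1a and Ero1b were not matched by symbol. The planned comparison of protein sequences was not run.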

Additional observations from a re-analysis of the deposited data

How the results depend on the processing

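Over all genes edgeR called 0, DESeq2 called 23, an unadjusted p under 0.05 took 278, and leaving out 1 library gave 0 to 196 (196 without control replicate 1, 66 without control replicate 2). Among the members edgeR called 0, an unadjusted p under 0.05 took 1, and leaving out 1 library gave 0 to 2, with 2 without control replicate 1. The members' median of -0.04 lay between -0.08 and -0.03 over the other scalings, filters, tools and the block, and between -0.21 and 0.03 with 1 library left out. The replicate block called 0 genes and 0 members; deviations of same-numbered libraries correlated at 0.244, but the labels do not say what the numbers share and there are 2 pairs, so samples were not treated as paired. Gclm, at -0.01, came to 0.0183 under limma-voom and 0.0181 under the replicate block, and Mgst2, also at -0.01, to 0.05 and 0.0411.

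Leaving out 1 library turned the direction of the genes listed here, and the cause was not tested. Ranges of the log2 fold change were, for NRF2 and synthesis genes, Nfe2l2 -0.20 to 0.36, Keap1 -0.43 to 0.38, Gclc -0.0569 to 0.27, Gclm -0.29 to 0.34, Gss -0.0581 to 0.24 and Gsr -0.0117 to 0.23. For the enzymes of peroxide and superoxide they were Gpx1 -0.0807 to 0.30, Prdx1 -0.39 to 0.87, Srxn1 -0.0149 to 0.55, Txn1 -0.30 to 0.33, Txnrd2 -0.0356 to 0.39, Gpx4 -0.22 to 0.13, Prdx4 -0.16 to 0.069, Cat -0.19 to 0.31, Sod2 -0.0573 to 0.14, Sod1 -0.32 to 0.22 and Sod3 -1.56 to 0.10. For Hmox1, Nqo1 and the transferases they were Hmox1 -0.22 to 0.19, Nqo1 -0.63 to 0.18, Gstm1 -0.12 to 0.45, Gsta3 -0.13 to 0.26, Gsto1 -0.26 to 0.0746, Gstp1 -0.41 to 0.17, Gstt1 -0.25 to 0.0192, Mgst1 -0.62 to 0.18 and Mgst2 -0.44 to 0.62. For genes of the further lists they were Maff -0.24 to 0.79, Bach1 -0.0211 to 0.36, Slc40a1 -0.12 to 0.98, Selenom -0.74 to 0.11, Aldh2 -0.31 to 0.51, Blvrb -0.31 to 0.83, Sephs2 -0.45 to 0.0129 and Sesn3 -0.72 to 0.0874. Where a leave-out left a group with a lone library, it was assumed to vary like the other group. The small number of libraries limits what could be detected, and the few counts of Gsta4 and Gstm7 limit those genes further.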

Other observations

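The matched pseudogene Gpx4-ps2, left out of the members, had 12 and 39 counts in the rhebCKO libraries and 13 and 40 counts in controls, higher in both replicates 2, while Gpx4 had 2768 and 3544 counts in the rhebCKO libraries and 3344 and 3687 counts in controls.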
